A study of Mus musculus with 20 samples.

Results

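Star encodes the steroidogenic acute regulatory protein, which brings cholesterol to the inner mitochondrial membrane, where the first enzyme of steroid synthesis cuts it. This description follows that gene in whole testes of 2 inbred mouse strains, AKR/N and C57BL/6, with and without a heat shock. Star was chosen by its readout, the signals of all its probe sets over both strains and all conditions, so its own values are given as a description and no test of Star is reported. It is 1 gene of the 18193 on the chip that have a probe set of their own, and it is read by 3 of the 34945 probe sets that the chip annotation gives to a single gene. All mice were 8 weeks old, and total RNA of testes was hybridised to the Affymetrix Mouse Genome 430 2.0 chip. The groups were AKR/N testes, unheated or exposed to 43 °C for 15 min and taken 8, 10, 12 or 24 h later, and C57BL/6 testes, unheated or taken at the same 4 times after the same heat shock. Each of these 10 groups had 2 arrays, and the labels do not say whether the 2 arrays came from separate animals, so any p-value measures only the spread between these arrays, which may be technical. The labels give the unheated controls no time of sampling, so heat cannot be told apart from time of sampling in any comparison with them.

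In the testis, steroids are made mainly by Leydig cells, which lie between the seminiferous tubules. Luteinizing hormone acts on a receptor of these cells, raises cyclic AMP, and switches on Star within hours. The protein then moves cholesterol into mitochondria, Cyp11a1 converts it to pregnenolone, and further enzymes convert that to testosterone. Transfer of cholesterol by the Star protein is regarded as the rate-limiting step of acute steroid production. In the RefSeq annotation of the mouse assembly GRCm38.p6, Star lies on chromosome 8 from 25808474 to 25815982. The probe sets 1418729_at, 1418728_at and 1449201_at are all annotated to Star. The first of these had the highest mean signal and stands for the gene unless another is named, and all 3 passed the filter on dim genes.

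The deposited values are probe-set signals on a linear scale. Array medians were 24.9 to 34.9, and the 2 arrays of each group had correlations across genes of 0.970 to 0.988, where genes are not independent replicates. The number of arrays limits the precision. Differences are given on the scale of log2(signal + 16), as differences of group means with the standard error (SE) of a limma fit over all 20 arrays. The pseudocount of 16 understates the change of low signals. Because whole testes were measured, fewer cells of a type and less RNA per cell cannot be told apart.

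Unheated testes of AKR/N had more Star signal than unheated testes of C57BL/6. On 1418729_at the signal was 304 and 301 in AKR/N controls, against 87.0 and 75.7 in C57BL/6 controls. On 1418728_at it was 128 and 152 in AKR/N controls, against 62.2 and 55.5 in C57BL/6 controls. On 1449201_at it was 89.8 and 122 in AKR/N controls, against 78.3 and 39.6 in C57BL/6 controls. The arrays of the strains did not overlap on any of the 3 probe sets, although on 1449201_at the nearest pair lay close together. The log2 difference of AKR/N over C57BL/6 was 1.71 (SE 0.22) on 1418729_at, 1.06 (SE 0.27) on 1418728_at and 0.74 (SE 0.26) on 1449201_at. As folds of signal + 16 these differences were 3.28, 2.08 and 1.67, so the 3 probe sets gave the same direction and unlike sizes.

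**Figure D1:**
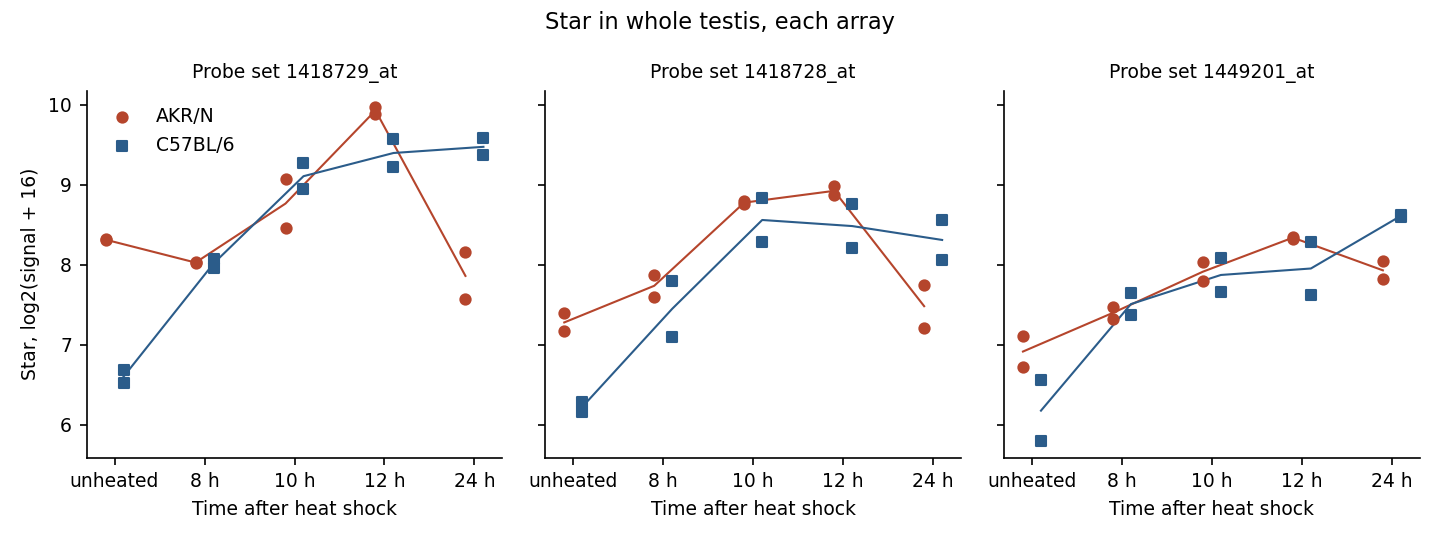
Star signal on the scale of log2(signal + 16) for each array, by condition, with 1 panel per probe set; points are single arrays and lines join the means of 2 arrays in AKR/N and in C57BL/6. C57BL/6 controls are the lowest group in all 3 panels, and AKR/N is lower at 24 h than at 12 h in all 3.

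In C57BL/6, Star was higher after heat shock than in controls at every time and on every probe set. On 1418729_at the signal was 87.0 and 75.7 in C57BL/6 controls, 234 and 252 at 8 h, 602 and 477 at 10 h, 745 and 582 at 12 h, and 751 and 645 at 24 h. Every heated C57BL/6 array lay above both controls, and from 10 h on the arrays of neighbouring times overlapped. The log2 difference from control on this probe set was 1.41, 2.51, 2.80 and 2.87 at 8, 10, 12 and 24 h (SE 0.22 each). On the linear scale of signal + 16 the highest of these, at 24 h, was a 7.32-fold difference. Over the 4 times the mean difference of heated over control C57BL/6 testes was 2.40 (SE 0.17).

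The other probe sets also lay above the controls at all 4 times in C57BL/6, with smaller mean differences. On 1418728_at the signal was 62.2 and 55.5 in C57BL/6 controls, 121 and 207 at 8 h, 440 and 297 at 10 h, 418 and 280 at 12 h, and 252 and 361 at 24 h. On 1449201_at it was 78.3 and 39.6 in C57BL/6 controls, 149 and 185 at 8 h, 255 and 187 at 10 h, 297 and 180 at 12 h, and 371 and 380 at 24 h. No heated C57BL/6 array overlapped the controls on either probe set. The mean difference of heated over control was 1.98 (SE 0.22) on 1418728_at and 1.81 (SE 0.20) on 1449201_at. The highest C57BL/6 time was 10 h on 1418728_at (2.34), where the arrays of 10, 12 and 24 h overlapped, and 24 h on 1449201_at (2.43), where both 24 h arrays lay above all earlier ones.

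In AKR/N, Star was highest at 12 h and lower again at 24 h, and the probe sets differed on whether heated testes at 8 h and 24 h lay above the controls. On 1418729_at the signal was 304 and 301 in AKR/N controls, 246 and 245 at 8 h, 521 and 337 at 10 h, 988 and 932 at 12 h, and 174 and 269 at 24 h. Both arrays of 8 h and both of 24 h lay below the controls, and those of 10 h and 12 h lay above them. The log2 difference from control was −0.29, 0.45, 1.61 and −0.45 at 8, 10, 12 and 24 h (SE 0.22 each). With the mean of all 3 probe sets in place of the brightest one, the differences at 8 h and 24 h were 0.22 and 0.26. Single arrays moved 2 of these values by more than 1.5 times. The 10 h difference was 0.15 without AKR/N 10 h replicate 1 and 0.75 without AKR/N 10 h replicate 2, and the 24 h difference was −0.16 without AKR/N 24 h replicate 1 and −0.75 without AKR/N 24 h replicate 2.

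On 1418728_at the signal was 128 and 152 in AKR/N controls, 179 and 219 at 8 h, 428 and 418 at 10 h, 490 and 451 at 12 h, and 133 and 199 at 24 h. On 1449201_at it was 89.8 and 122 in AKR/N controls, 162 and 145 at 8 h, 246 and 206 at 10 h, 311 and 305 at 12 h, and 210 and 248 at 24 h. All group means of heated AKR/N testes were above the controls on these probe sets, and the 24 h arrays overlapped the controls on 1418728_at. The differences from control at 8, 10, 12 and 24 h were 0.46, 1.50, 1.64 and 0.20 on 1418728_at and 0.48, 1.0, 1.42 and 1.01 on 1449201_at. The mean over the 4 times was 0.33 (SE 0.17) on 1418729_at, 0.95 (SE 0.22) on 1418728_at and 0.98 (SE 0.20) on 1449201_at. Heated AKR/N arrays overlapped the controls on the first 2 of these and not on 1449201_at.

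**Figure D2:**
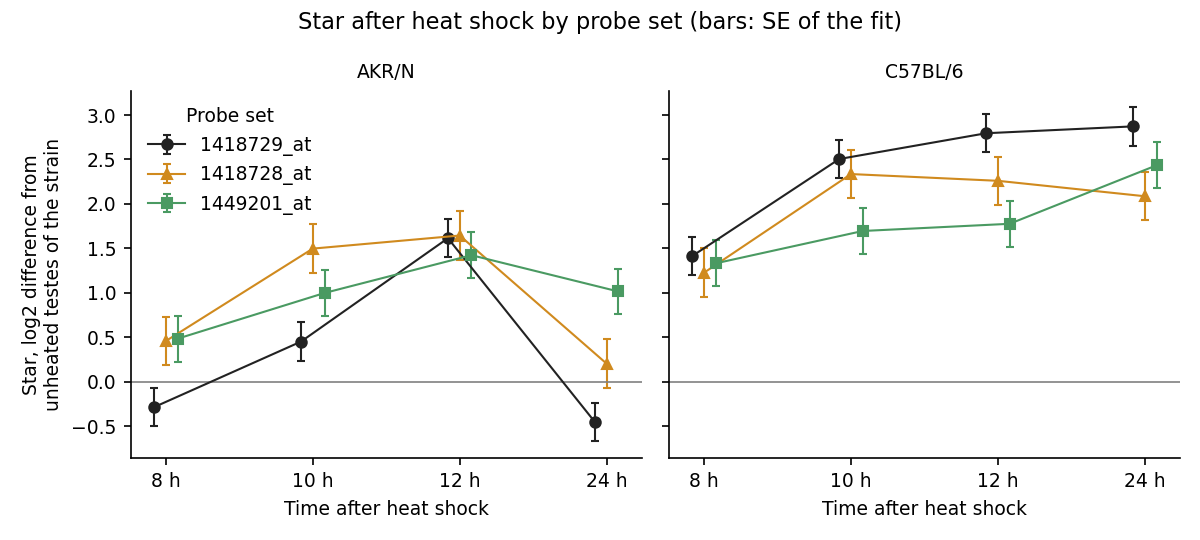
Log2 difference of Star from unheated testes of the same strain at 8, 10, 12 and 24 h after heat shock, AKR/N left and C57BL/6 right, 1 line per probe set, with bars for the SE of the fit (2 arrays per group). In AKR/N the probe sets lie close together at 12 h (1.42 to 1.64) and apart at 24 h (−0.45 to 1.01), and in C57BL/6 all values are above 1.

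Between 12 h and 24 h the strains parted. The difference of 24 h over 12 h on 1418729_at was −2.07 in AKR/N and 0.08 in C57BL/6 (SE 0.22 each). On 1418728_at it was −1.44 in AKR/N and −0.17 in C57BL/6 (SE 0.27 each), and on 1449201_at −0.41 in AKR/N and 0.66 in C57BL/6 (SE 0.26 each). The 12 h and 24 h arrays did not overlap in AKR/N on any probe set. In C57BL/6 they overlapped on 1418729_at and 1418728_at and not on 1449201_at.

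The difference between strains at a given time was largest in controls and at 24 h, in opposite directions. On 1418729_at AKR/N over C57BL/6 was 1.71 in controls, 0.01 at 8 h, −0.34 at 10 h, 0.53 at 12 h and −1.61 at 24 h (SE 0.22 each). The strains overlapped at 8 h and 10 h, AKR/N lay above C57BL/6 at 12 h, and below it at 24 h. At 24 h the difference was −0.83 (SE 0.27) on 1418728_at and −0.68 (SE 0.26) on 1449201_at, without overlap on either. The heat effect in AKR/N minus that in C57BL/6, over the mean of the 4 times, was −2.07 (SE 0.24) on 1418729_at, −1.03 (SE 0.30) on 1418728_at and −0.83 (SE 0.29) on 1449201_at. By time it was −1.70, −2.05, −1.18 and −3.33 on 1418729_at at 8, 10, 12 and 24 h (SE 0.31 each). These values share the controls of each strain, and the lower C57BL/6 control signal enters all of them.

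Ordered from high to low by group mean on 1418729_at, the groups ran AKR/N 12 h, C57BL/6 24 h, C57BL/6 12 h, C57BL/6 10 h, AKR/N 10 h, AKR/N control, AKR/N 8 h, C57BL/6 8 h, AKR/N 24 h and C57BL/6 control. Mean signals were 960 ± 39.4 in AKR/N at 12 h at the top, and 81.4 ± 8.00 in C57BL/6 controls at the bottom (SD, n = 2 each). AKR/N 12 h stood clear of the next group by 0.45, and C57BL/6 control stood below the next group by 1.26, on the log2 scale. Arrays of neighbouring groups overlapped from C57BL/6 24 h down to AKR/N 10 h, and from AKR/N 8 h down to AKR/N 24 h. AKR/N controls lay between these runs and overlapped neither neighbour. Their gap to AKR/N 8 h (0.29) was still no larger than that between C57BL/6 10 h and AKR/N 10 h (0.34), which overlapped. C57BL/6 control was also the lowest group on the other probe sets, while the top group was AKR/N 12 h on 1418728_at and C57BL/6 24 h on 1449201_at.

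The 3 probe sets tracked each other less closely in AKR/N than in C57BL/6. Across the 10 arrays of a strain, log2 values of 1418729_at correlated with those of 1418728_at with r = 0.82 in AKR/N and 0.95 in C57BL/6, and with those of 1449201_at with r = 0.61 in AKR/N and 0.93 in C57BL/6. These correlations are descriptions over arrays that share RNA and scaling, and the gap between strains was not tested. The gaps between probe sets were set beside a sign of RNA quality, the ratio of 3' to 5' probe set signal for beta-actin. The conditions pooled for this differ between the strains and follow the values, not the design. That the pools differ is thus a description and no test. In AKR/N controls and 12 h testes (4 arrays) the ratio was 2.39 to 2.92, and 1418729_at exceeded 1418728_at by 0.92 to 1.15 and 1449201_at by 1.20 to 1.62 (log2). In AKR/N testes of 8, 10 and 24 h (6 arrays) the ratio was 1.87 to 2.17, and the gaps were −0.30 to 0.43 and −0.25 to 1.03.

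In C57BL/6 testes of 12 and 24 h (4 arrays) the actin ratio was 2.52 to 3.57, and the gaps of 1418729_at over 1418728_at and 1449201_at were 0.81 to 1.52 and 0.74 to 1.61. In C57BL/6 controls and testes of 8 and 10 h (6 arrays) the ratio was 2.0 to 2.46, and the gaps were 0.27 to 0.86 and 0.13 to 1.28. The AKR/N arrays on which 1418729_at lay below the controls are thus among those with a low actin ratio. The same ratio for Gapdh was 1.19 to 1.32 in AKR/N controls and 12 h testes, against 0.98 to 1.08 at 8, 10 and 24 h. In C57BL/6 the Gapdh ratios overlapped, with 1.19 to 1.80 at 12 and 24 h and 0.90 to 1.33 in controls and at 8 and 10 h. The part of either ratio in the values of Star was not tested.

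**Figure D3:**
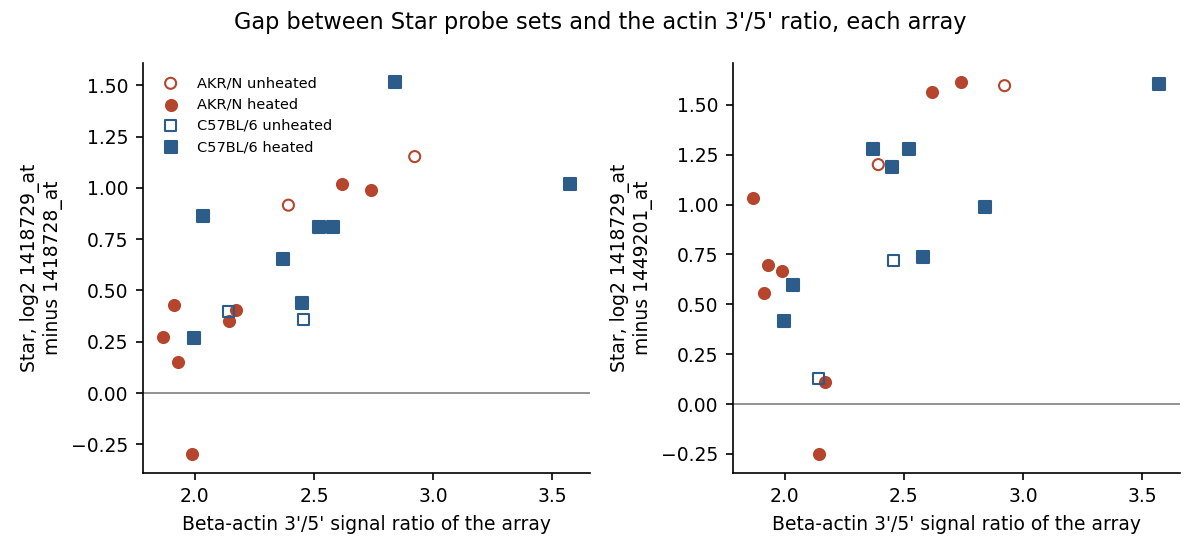
Log2 gap of Star probe set 1418729_at over 1418728_at (left) and over 1449201_at (right) against the beta-actin 3'/5' signal ratio of the same array; each point is 1 of 20 arrays, open for unheated and filled for heated, circles for AKR/N and squares for C57BL/6. AKR/N arrays with ratios up to 2.17 have gaps over 1418728_at of at most 0.43, and those with ratios from 2.39 have gaps from 0.92.

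The other genes of the pathway were tested with limma, with p-values adjusted over all 15762 genes. Of 138 genes in 4 lists (steroid synthesis enzymes, cholesterol uptake, storage and delivery, LH and cyclic AMP signalling, and regulators of Star), 120 were on the chip and 117 were tested. In controls of AKR/N over C57BL/6, 12 of the 117 were higher and 2 lower at an adjusted p under 0.05. Of all genes tested in this comparison 6.29% were called. The median log2 difference was 0.15 over the 117 genes and 0.06 over all genes. Leaving out AKR/N control replicate 1 lowered the total of 14 called genes to 6, and leaving out C57BL/6 control replicate 1 or 2 lowered it to 3 or 4. Leaving out either C57BL/6 8 h array gave 9.

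Steroid synthesis enzymes held 6 of the 12 genes that were higher in AKR/N controls, out of 18 tested (33.3%, beside 6.29% of all genes). None of the 18 was lower. Leaving out AKR/N control replicate 1 lowered the 6 to 3, and leaving out either C57BL/6 control lowered it to 2. Where other probe sets of a gene are given, they are those that also passed the limit for dim genes. Hsd17b3, which makes testosterone from androstenedione, had signals of 451 and 509 in AKR/N controls, against 210 and 177 in C57BL/6 controls. Its log2 difference was 1.25 (SE 0.14, adjusted p = 7.57e-05), and it was called under every alternative. Cyp17a1, which turns progestins into androgens, had signals of 2229 and 2353 in AKR/N controls, against 1203 and 1017 in C57BL/6 controls, a difference of 1.04 (SE 0.19, adjusted p = 0.00468). Cyp11a1, the side-chain cleavage enzyme that takes the cholesterol Star delivers, had signals of 438 and 483 in AKR/N controls, against 257 and 265 in C57BL/6 controls. It differed by 0.78 (SE 0.15, adjusted p = 0.00704), with 0.33 and 0.77 on its other probe sets. Hsd3b1, which converts pregnenolone to progesterone, differed by 0.83 (SE 0.21, adjusted p = 0.0317). The limma call of Cyp17a1 was lost when C57BL/6 control replicate 2 was left out (adjusted p = 0.0635). That of Cyp11a1 was lost when C57BL/6 control replicate 1 was left out (adjusted p = 0.058) and that of Hsd3b1 without any 1 of the 4 controls (adjusted p up to 0.176).

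In the other lists, Apoe and Dbi were higher in AKR/N controls by 0.61 (adjusted p = 0.0316) and 0.49 (adjusted p = 0.0415). Apoe carries cholesterol between cells, and Dbi binds acyl-CoA and Tspo. Rapgef3, a cyclic AMP sensor, was higher by 0.84 (adjusted p = 0.00422), and Zfpm2, a partner of Gata4, by 0.70 (adjusted p = 0.0357). Each of these 4 limma calls was lost when C57BL/6 control replicate 1 was left out, with adjusted p up to 0.204 for Apoe, 0.306 for Dbi, 0.0523 for Rapgef3 and 0.194 for Zfpm2 over all leave-outs.

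Leydig cell markers, a list that shares 5 of its called genes with the enzymes, had 6 of 13 higher and 1 lower in AKR/N controls. That was 53.8%, beside 6.29% of all genes, and the median was 0.56. The lower marker was Ptgds, a prostaglandin synthase, with a difference of −0.94 (adjusted p = 0.00106). The summed signal of the 14 Leydig markers on the chip was 8950 to 9229 in AKR/N controls, against 8098 to 8239 in C57BL/6 controls. Macrophage and leukocyte markers also moved in this comparison, 4 of 19 higher and 1 lower (26.3%, beside 6.29% of all genes). Among them Csf1r, a growth factor receptor of macrophages, was higher by 0.75. The sum of the macrophage and leukocyte markers was 4691 to 4981 in AKR/N controls, against 3583 to 3968 in C57BL/6 controls. The part of either cell type in the Star difference was not tested. Insl3, Lhcgr, Hsd3b6 and Srd5a1 were not analysed here.

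After heat shock, more genes of the pathway passed the test in C57BL/6 than in AKR/N. Over the mean of the 4 times 31 of the 117 genes rose and 0 fell in C57BL/6, with a median log2 difference of 0.20 against 0.03 over all genes, where 21.4% of all genes were called. In limma 52 of the 117 had an unadjusted p under 0.05 in C57BL/6, beside 5403 of all 15762 genes. Leaving out C57BL/6 control replicate 1 or 2 lowered the count of 31 to 15 or 12. In AKR/N 4 of 117 rose and 2 fell, with a median of 0.09 against −0.03 over all genes, where 4.3% of all genes were called. There 41 of the 117 had an unadjusted p under 0.05, beside 3557 of all 15762 genes. At 24 h alone, 28 of 117 rose and 9 fell in AKR/N (31.6%), where 3686 of all 15762 genes were called. In C57BL/6 49 rose and 7 fell at 24 h (47.9%), where 5989 of all genes were called. For the difference of the heat effect between the strains over the mean of the 4 times, limma called 0 of 117 pathway genes, also with an intensity trend in its prior. Of the 117, 20 had an unadjusted p under 0.05, beside 2016 of all 15762 genes. That comparison called 0.019% of all genes, so the counts within each strain do not show that the pathway responded differently in them. At 24 h alone, the difference of the heat effect was called higher in 0 and lower in 4 of 117 (3.42%), beside 277 of all 15762 genes.

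The AKR/N count of 6 was small and followed single arrays. Leaving out AKR/N control replicate 1 or 2 lowered it to 0 or 1. It was 2 without AKR/N 8 h replicate 1, AKR/N 24 h replicate 2, either C57BL/6 24 h array or either C57BL/6 control, 3 without AKR/N 8 h replicate 2 or either C57BL/6 8 h array, and 10 without either C57BL/6 12 h array.

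After heat, steroid synthesis enzymes gave mixed results. In C57BL/6, 5 of 18 rose and 0 fell (27.8%, beside 21.4% of all genes), and in AKR/N 0 rose and 1 fell (5.56%, beside 4.3%). Without either C57BL/6 control the 5 became 3. Cyp11a1 rose in C57BL/6 by 0.73 (SE 0.12, adjusted p = 0.00119) in limma, but its other probe sets gave 0.11 and −0.02. Its differences at 8, 10, 12 and 24 h were 1.03, 1.07, 0.90 and −0.07 in C57BL/6, so that at 24 h, where Star stood 2.87 above control, Cyp11a1 signals were 288 and 214 in heated C57BL/6 testes, against 257 and 265 in controls. In AKR/N the differences of Cyp11a1 were −0.19, 0.68, 0.47 and 0.23, with a mean of 0.30 that did not pass the test (adjusted p = 0.162).

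Cyp17a1 had differences of −0.23, 0.45, −0.25 and −1.24 at 8, 10, 12 and 24 h in AKR/N, and 0.74, 0.76, 0.40 and −1.24 in C57BL/6. Its signals at 24 h were 1082 and 847 in AKR/N, against 2229 and 2353 in AKR/N controls, and 521 and 404 in C57BL/6, against 1203 and 1017 in C57BL/6 controls. In both strains the 24 h arrays of Cyp17a1 lay below the controls without overlap, while Star at that time was high in C57BL/6. Hsd17b3 had 24 h differences of −1.13 in AKR/N and −0.62 in C57BL/6. Its mean over the 4 times fell by 0.42 on the log2 scale in AKR/N (SE 0.11, adjusted p = 0.0482). That limma call ended under 18 of the 20 leave-outs of an array, with adjusted p up to 0.254 without AKR/N control replicate 2. Hsd3b1 had differences of 0.21, 0.13, −1.18 and −0.16 in AKR/N and 0.84, −0.10, −0.15 and 1.04 in C57BL/6, so at 12 h in AKR/N, the group with the most Star on 1418729_at, its signals were 210 and 200, against 496 and 474 in AKR/N controls.

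The largest rises among the enzymes were in genes that also act outside androgen synthesis. Hsd17b12, which also serves the elongation of fatty acids, rose in C57BL/6 by 1.06 (SE 0.15, adjusted p = 0.000676), with 0.52 on its other probe set. Hsd17b7, which also takes part in cholesterol synthesis, rose by 0.85 (SE 0.14, adjusted p = 0.00108), with −0.08 and 0.32 on its other probe sets. Fdx1, the electron donor of Cyp11a1, differed from control by 0.09 in AKR/N and less than 0.01 in size in C57BL/6, and neither passed the test.

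**Figure D4:**
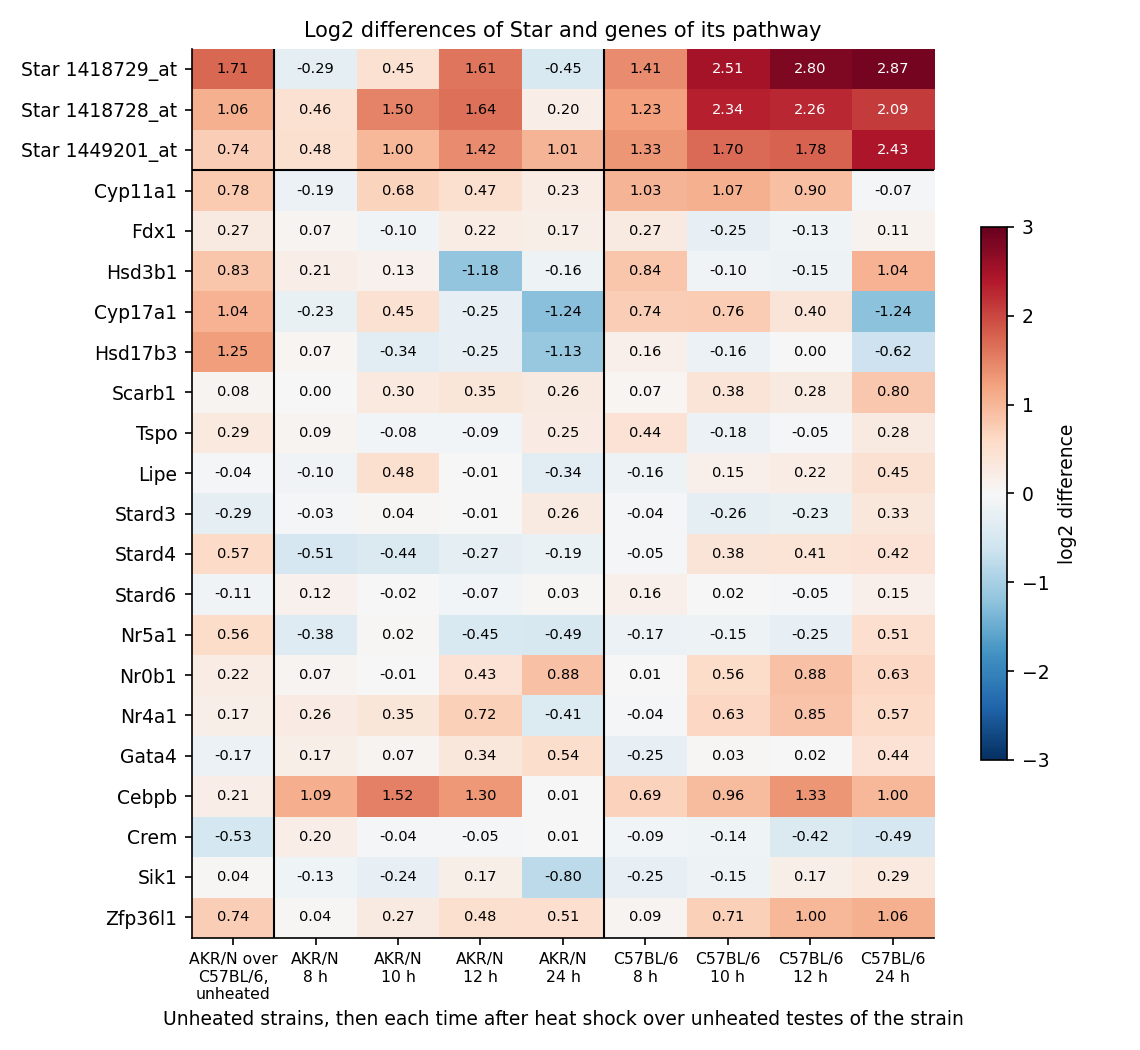
Log2 differences of the 3 Star probe sets and of named genes of its pathway, as numbers in coloured cells; the first column is AKR/N over C57BL/6 in unheated testes, and the others are each time after heat shock over unheated testes of the strain, AKR/N before C57BL/6 (2 arrays per group). Cyp17a1 and Hsd17b3 are below control at 24 h in both strains, where Star is 2.09 to 2.87 above control in C57BL/6.

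Genes of cholesterol uptake, storage and delivery had 9 of 31 members that rose and 0 that fell in C57BL/6, 29% beside 21.4% of all genes. Without either C57BL/6 control the 9 became 4. In AKR/N limma called 0 of 31 over the mean of the 4 times, and 12 had an unadjusted p under 0.05, beside 3557 of all 15762 genes. At 24 h alone, 11 of 31 rose and 3 fell in AKR/N (45.2%), where 3686 of all 15762 genes were called. In C57BL/6 17 rose and 2 fell at 24 h (61.3%), where 5989 of all genes were called. Ywhag, a 14-3-3 protein known in mouse Leydig cells to bind the Star protein, rose in C57BL/6 by 1.21 (SE 0.13, adjusted p = 0.000157), with 0.81 and 0.34 on its other probe sets. Vdac1, a channel of the outer mitochondrial membrane, rose by 0.96 (SE 0.14, adjusted p = 0.000658), and its 4 other probe sets gave 0.29 to 0.87. Pcyt1a, an enzyme of phosphatidylcholine synthesis, rose by 0.60 (adjusted p = 0.000787), but its 3 other probe sets gave −0.09 to 0.09. Scarb1, the receptor that takes up cholesterol esters from high-density lipoprotein, rose in C57BL/6 by 0.38 (SE 0.10, adjusted p = 0.0152), with 0.83 and 0.84 on its other probe sets. The call of Scarb1 was lost when C57BL/6 control replicate 1 was left out (0.28, adjusted p = 0.212). Tspo, a cholesterol-binding protein of the outer mitochondrial membrane, and Lipe, which frees cholesterol from its esters, had differences of 0.04 and 0.01 in AKR/N and 0.12 and 0.16 in C57BL/6, and none of these passed the test.

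Among the 14 other genes of the START family, counted apart from the 117 and whose members share the lipid-binding domain of Star, 1 was called in controls (7.14%, beside 6.29% of all genes) and 2 in heated C57BL/6 testes (14.3%, beside 21.4%), shares near those of all genes. In controls Acot12, an acyl-CoA thioesterase, was the lower one in AKR/N, by −2.63 (SE 0.29, adjusted p = 6.8e-05). In heated C57BL/6 testes Cert1, which carries ceramide, rose by 0.60 (adjusted p = 0.00451) and Pctp, which carries phosphatidylcholine, fell by 0.60 on the log2 scale (adjusted p = 0.0168). In AKR/N, where 4.3% of all genes were called, limma called 0 of the 14 after heat over the mean of the 4 times. Of the 14, 4 had an unadjusted p under 0.05, beside 3557 of all 15762 genes. At 24 h alone, 3 of 14 rose and 1 fell in AKR/N (28.6%), where 3686 of all genes were called. Stard4, a cytosolic cholesterol carrier, differed by 0.57 in controls (adjusted p = 0.0568), by −0.35 after heat in AKR/N and by 0.29 after heat in C57BL/6. Stard3, which acts at endosomes, and Stard6, known from male germ cells, had differences between −0.29 and 0.07 in these 3 comparisons and passed in none.

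Of the LH and cyclic AMP genes, 2 of 25 rose and 1 fell after heat in AKR/N (12%, beside 4.3% of all genes), and 6 rose and 0 fell in C57BL/6 (24%, beside 21.4%). Leaving out C57BL/6 control replicate 1 or 2 lowered the 6 to 1 or 2. The 3 called in AKR/N became 0 without either AKR/N control and 1 under 7 other leave-outs. Gnas, the G protein subunit that couples the hormone receptor to adenylyl cyclase, rose by 0.58 (SE 0.11, adjusted p = 0.0139) in AKR/N and by 0.59 (SE 0.11, adjusted p = 0.00232) in C57BL/6. The AKR/N call of Gnas was lost when either AKR/N control was left out (adjusted p up to 0.169), and its C57BL/6 call when C57BL/6 control replicate 1 was (adjusted p = 0.0611). Of its other probe sets, 1 passed the limit for dim genes and gave 0.76 in AKR/N and 0.13 in C57BL/6. With the mean of all probe sets of Gnas, dim ones included, the differences were 0.26 in AKR/N (adjusted p = 0.163) and 0.21 in C57BL/6 (adjusted p = 0.176), and neither passed. Prkar2a, a regulatory subunit of protein kinase A, rose in C57BL/6 by 0.56 (adjusted p = 0.00322), which was lost when C57BL/6 control replicate 2 was left out (adjusted p = 0.068). Prkacb, a catalytic subunit of the kinase, rose there by 0.50 (adjusted p = 0.00584), which was lost when either C57BL/6 control was left out (adjusted p up to 0.0821). In AKR/N Dusp1, a phosphatase of MAP kinases, rose by 0.82 (adjusted p = 0.0469), and Pde10a, which breaks down cyclic AMP, fell by 0.50 on the log2 scale (adjusted p = 0.038). The call of Dusp1 ended under 14 leave-outs (adjusted p up to 0.234) and that of Pde10a under 10 (adjusted p up to 0.338), both controls of AKR/N among them.

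Transcription and mRNA regulators of Star held the largest pathway changes after heat. In AKR/N 2 of 43 rose and 0 fell, and in C57BL/6 11 rose and 0 fell, shares of 4.65% and 25.6% that lay near those of all genes (4.3% and 21.4%). Leaving out C57BL/6 control replicate 1 or 2 lowered the 11 to 7 or 3. The 2 became 0 without either AKR/N control, 4 without either C57BL/6 12 h array and 1 under 9 other leave-outs. Egr1, an immediate early transcription factor, rose in C57BL/6 by 3.44 (SE 0.57, adjusted p = 0.00129). Its signals were 66.0 and 69.5 in C57BL/6 controls, 1970 and 1637 at 8 h, 596 and 1410 at 10 h, 446 and 1722 at 12 h, and 442 and 432 at 24 h. In AKR/N they were 461 and 214 in controls, 2157 and 395 at 8 h, 1558 and 2729 at 10 h, 794 and 461 at 12 h, and 116 and 199 at 24 h. The C57BL/6 group mean of Egr1 was highest at 8 h, when Star was at its lowest heated level there, and the replicates of several groups lay far apart.

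Jun, a subunit of the AP-1 factor, rose by 1.25 (SE 0.26, adjusted p = 0.021) in AKR/N and by 1.35 (SE 0.26, adjusted p = 0.00278) in C57BL/6, with 1.84 and 2.05 on its other probe set. The AKR/N call of Jun was lost when either AKR/N control was left out (adjusted p up to 0.169). Gata6, a zinc-finger activator of steroidogenic genes, rose in AKR/N by 0.61 (adjusted p = 0.0469), a call that ended under 16 leave-outs (adjusted p up to 0.311). Zfp36, which binds AU-rich elements in mRNAs, rose in C57BL/6 by 1.26 (SE 0.24, adjusted p = 0.00303). Zfp36l1, a relative of it that is known in mouse cells to bind Star mRNA, was higher in AKR/N controls by 0.74 (adjusted p = 0.0272) and rose in C57BL/6 by 0.72 (adjusted p = 0.00376). On its other probe set Zfp36l1 gave 0.13 in controls and 0.18 in heated C57BL/6 testes. Its control call was lost when AKR/N control replicate 1 (adjusted p = 0.275) or either C57BL/6 control was left out, and its C57BL/6 call when C57BL/6 control replicate 2 was (adjusted p = 0.0853).

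Among nuclear factors, Nr5a1, the main activator of steroidogenic genes, passed the test in none of the 4 comparisons, with 0.56 in controls (adjusted p = 0.0712), −0.33 after heat in AKR/N and −0.02 after heat in C57BL/6. Nr0b1, which represses Star, rose in C57BL/6 by 0.52 (adjusted p = 0.00721), which was lost when C57BL/6 control replicate 2 was left out (adjusted p = 0.115). Its differences at 24 h were 0.88 in AKR/N and 0.63 in C57BL/6. Cebpb, an activator of Star, rose in C57BL/6 by 1.0 (adjusted p = 0.0181), which was lost when either C57BL/6 control was left out (adjusted p up to 0.205). In AKR/N it differed by 0.98 and missed the threshold (adjusted p = 0.0554). Nr2f2, an orphan nuclear receptor of stromal and Leydig cells, was higher in AKR/N controls by 0.89 (SE 0.15, adjusted p = 0.00216), with −0.12 to 0.74 on its 4 other probe sets. Nr4a1, Gata4 and Sik1 passed in none of the comparisons, and Crem, a cyclic AMP-responsive factor, differed by −0.53 in controls, a limma call (adjusted p = 0.0492) that was lost under 17 of 20 leave-outs, up to 0.403 without AKR/N control replicate 1. The other pathway gene that was lower in AKR/N controls was Dlx5, a homeobox factor named after its values were seen, with −0.57 (adjusted p = 0.0493).

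Markers of other steroid-making and interstitial cells were read beside these results. The defining adrenal genes Cyp11b1, Cyp11b2, Cyp21a1 and Mc2r had signals of at most 35.0 on any array, near the limit of 17.5 used for dim genes. Over the mean of the 4 times, 0 of 5 tested genes of the whole adrenal list were called in AKR/N, beside 4.3% of all genes. In C57BL/6 2 of the 5 rose and 1 fell (60%, beside 21.4% of all genes). In heated C57BL/6 testes Mrap, an accessory protein of the adrenocorticotropin receptor, rose by 1.37 (adjusted p = 0.000404), Gstm7, a glutathione transferase, rose by 0.45 (adjusted p = 0.0296), and Cyp21a1 fell by 0.55 on the log2 scale (adjusted p = 0.0263). Mrap was also higher in AKR/N controls, by 1.25 (adjusted p = 0.00453), and these genes were named after their values were seen. The summed signal of the 6 adrenal markers on the chip was 638 to 685 at 24 h in AKR/N, against 391 to 495 in AKR/N controls, and 650.0 to 664 at 24 h in C57BL/6, against 323 to 375 in C57BL/6 controls. Leydig cell markers had 0 of 13 higher and 1 lower after heat in AKR/N, and 5 higher and 0 lower in C57BL/6, beside 4.3% and 21.4% of all genes. Their summed signal ran from 7499 to 10669 in heated AKR/N testes, against 8950 to 9229 in AKR/N controls, and from 8643 to 11303 in heated C57BL/6 testes, against 8098 to 8239 in C57BL/6 controls. In AKR/N it was lowest at 24 h, 7499 to 8073. There Star differed from control by −0.45 on 1418729_at, 0.20 on 1418728_at and 1.01 on 1449201_at. Among heated C57BL/6 testes the sum was also lowest at 24 h, 8643 to 9435, where Star was highest on 1418729_at. At 12 h in AKR/N, where Star was highest in that strain, the sum was 8215 to 9504. Macrophage and leukocyte markers rose in 1 of 19 genes in AKR/N (Cd14, by 1.12) and 2 of 19 in C57BL/6. These were 5.26% and 10.5%, beside 4.3% and 21.4% of all genes. Sertoli cell markers had 1 of 17 higher in AKR/N (5.88%, beside 4.3% of all genes), and 7 higher and 1 lower in C57BL/6 (47.1%, beside 21.4%). Their sum at 24 h was 21289 to 22327 in AKR/N, against 15129 to 15216 in AKR/N controls, and 22570 to 23333 in C57BL/6, against 13223 to 13339 in C57BL/6 controls. The part of these cell types in the Star values was not tested.

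Among 5281 genes whose group means span at least 1 on the log2 scale, those with the pattern most like 1418729_at over the 20 arrays were named by Pearson's r, as a description, since the arrays share strains and times. They were Gadd45a (r = 0.918), a stress-induced gene, Timm8a1 (r = 0.899), a chaperone of mitochondrial protein import, Sqstm1 (r = 0.898), an autophagy receptor, and Cdkn1a (r = 0.897), the cell-cycle inhibitor p21. Emp1, Efcab1, Phlda1 and Bach1 followed with r from 0.868 to 0.894. On 1449201_at the same 8 genes had r from 0.758 to 0.904, lowest for Cdkn1a and highest for Phlda1. The most opposed genes were Arhgap20 (r = −0.833), 4930431P19Rik (r = −0.833), 4933406C10Rik (r = −0.824) and Echdc1 (r = −0.809). Of the pathway genes, Ywhag had the highest r with Star, 0.848, while the steroid enzymes Cyp11a1, Cyp17a1, Hsd3b1 and Hsd17b3 had r of 0.346, 0.0048, −0.240 and −0.0411.

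Cdkn1a shows where the likeness ends. Its mean log2 level was 6.21, 6.77, 7.55, 9.24 and 6.74 in AKR/N controls and at 8, 10, 12 and 24 h, and 6.15, 6.50, 8.50, 9.04 and 8.66 in the same order in C57BL/6. Like Star on 1418729_at, Cdkn1a was high at 12 h in both strains and stayed high at 24 h in C57BL/6 alone. On the other probe sets, Star at 24 h in AKR/N was 0.20 (1418728_at) and 1.01 (1449201_at) above control, without overlap on 1449201_at only. The control levels of Cdkn1a, unlike those of Star, hardly differed between the strains. Gadd45a had control means of 5.63 in AKR/N and 4.97 in C57BL/6, on the same side as Star.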

How the data were processed

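The deposited signals are in the unit intensity on a linear scale, 1 value per probe set and array. The unit was read from the values. The trimmed mean of probe sets (2% off each end) was 125.001 on all 20 arrays, as scaling gives. How the authors summarised and scaled them is not given in the sources used here. Groups were taken from the labels, and no array was left out.

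From these, log2(signal + 16) was computed. Of 45101 probe sets, 64 controls were left out and 34945 had 1 gene in the chip annotation. The brightest probe set stood for each of 18193 genes, and the 15762 genes with a group mean at or over the 40th percentile (log2 5.07, signal 17.5) were tested. Group means were fitted with limma 3.58.1 in R 4.3.3 and moderated by eBayes (3.54 prior and 10 residual degrees of freedom). Calls were made at 0.05 after Benjamini-Hochberg adjustment over all genes tested. The heat effect is the mean of the 4 times minus control. The fit was tested on simulated data. Plots used matplotlib 3.10.9 in Python 3.11.15. Deviations of same-numbered arrays had r of −0.28 to 0.30 over 45 group pairs, with a median of −0.0086. The replicate numbers were not used to pair the samples, although this check cannot exclude a pairing among some groups.

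Star and the gene lists were chosen with earlier results of these data known. Named genes were a set list, up to 3 called genes per pathway list and comparison with the smallest adjusted p, and the 8 genes most like and the 4 least like Star. Alternatives were the pseudocount, scaling, filter, probe-set choice, replicate block, variance trend and leaving out each array.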

Additional observations from a re-analysis of the deposited data

Results flagged for a closer look

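The heat effect on Star had opposite directions in the strains at 8 h and at 24 h on probe set 1418729_at. At 8 h both AKR/N arrays lay below the AKR/N controls and both C57BL/6 arrays lay above the C57BL/6 controls, and the heat effect in AKR/N minus that in C57BL/6 was −1.70. At 24 h the same held, with a difference of −3.33. These differences were not tested, since Star was chosen on these values. On 1418728_at the differences at 8 h and 24 h were −0.77 and −1.88, and on 1449201_at −0.85 and −1.42, but there the AKR/N group means at these times lay above the AKR/N controls.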

How the results depend on the processing

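The size of the Star differences depended mainly on the probe set. AKR/N over C57BL/6 in controls was 1.34 with a pseudocount of 64, 1.17 with the mean of all probe sets, 1.06 on 1418728_at and 0.74 on 1449201_at. In the same order, heated over control in C57BL/6 was 1.96, 2.06, 1.98 and 1.81, and the heat effect in AKR/N minus C57BL/6 was −1.64, −1.31, −1.03 and −0.83. Heated over control in AKR/N was 0.75 with the mean of all probe sets, 0.95 on 1418728_at and 0.98 on 1449201_at. Leaving out single arrays moved these 4 values from 1.63 to 1.80, from 2.31 to 2.48, from −2.15 to −1.98 and from 0.26 to 0.41. On 1418729_at or the mean of all probe sets, the AKR/N difference ran from −0.30 to 0.22 at 8 h and from −0.75 to 0.26 at 24 h over the alternatives, and at 8 h and 24 h it was 0.46 and 0.20 on 1418728_at and 0.48 and 1.01 on 1449201_at, so its sign was not settled. Median centring and quantile normalization changed no sign of Star.

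Called pathway genes in controls numbered 9 with median centring, 6 with the mean of all probe sets, and 3 to 15 without single arrays. In heated C57BL/6 testes they numbered 12 to 35 without single arrays. In heated AKR/N testes they numbered 3 with a pseudocount of 1, with no filter on dim genes or with the replicate block, 15 with a pseudocount of 64 or the 60th percentile as filter, 17 with an intensity trend in the prior variance, and 0 to 10 without single arrays. For the difference of heat effects over the mean of the 4 times the count was 0 under every alternative. The replicate numbers were not taken as pairs in the main fit, and 4 of 45 pairs of groups had a correlation over 0.1. Of 33 calls of single named genes, 13 were kept in every alternative other than leaving out arrays, 11 in every leave-out, and 0 reversed. With the mean of all probe sets limma no longer called Cyp11a1, Crem, Zfp36l1, Dbi, Rapgef3, Nr2f2 and Zfpm2 in controls, Gnas, Pde10a and Gata6 in heated AKR/N testes, or Cyp11a1, Hsd17b7, Pcyt1a, Gnas and Prkacb in heated C57BL/6 testes. With median centring it no longer called Hsd3b1, Crem, Apoe, Dbi and Zfpm2 in controls, Hsd17b3, Pde10a and Gata6 in heated AKR/N testes, or Scarb1 in heated C57BL/6 testes. The cause of these changes was not tested. Having 2 arrays per group limits the precision of every value.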
